A study of Mus musculus with 6 samples.

Results

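Keratins are the intermediate filament proteins of epithelial cells, and their genes were followed here in N18-Fms mouse prostate cancer cells left unstimulated or stimulated with CSF-1. The members were all genes whose name in the array files is Krt followed by a number and an optional letter, which excludes the keratin-associated proteins. This gave 51 genes on 65 probes, among 36028 genes and 55681 probes measured. The brightest probe was used for a gene with several, and 30 of the 51 keratins, of 24648 genes in all, entered the test, which required 1 group or more with signal well above background on its 2 arrays.

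A keratin filament is built from pairs of a type I (acidic) and a type II (basic) keratin, and the filament network is anchored in desmosomes between cells and in hemidesmosomes on the basement membrane. In the mouse the type I genes are clustered on chromosome 11 and the type II genes on chromosome 15, with Krt18 as the type I gene that lies beside its partner Krt8 in the type II cluster. Luminal cells of the prostate are known for the simple epithelial pair Krt8 and Krt18, basal cells for Krt5, Krt14 and Krt15, and wounded or hyperproliferative epithelium for Krt6, Krt16 and Krt17.

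The N18-Fms cells (N18-CFMS in the labels) derive from C2H, a cell line cloned from a tumor of the TRAMP mouse, a transgenic model of prostate adenocarcinoma. N18 is 1 neomycin-resistant, luciferase-expressing subclone, so the data describe 1 clone. It was transduced with murine c-fms, which encodes the CSF-1 receptor, by retrovirus and sorted by flow cytometry for the receptor, and all groups carry this receptor. All groups were grown with fetal bovine serum and dihydrotestosterone. The Control group was left unstimulated, with 2 arrays per group. The 24H CSF1 group was given recombinant mouse CSF-1 for 24 h, at a dose of 100 ng/mL, and the 48H CSF1 group the same dose for 48 h. The study detected CSF-1 in medium conditioned by N18 cells and proposes autocrine activation of the transduced receptor. Control cells were thus without added CSF-1, and not necessarily without CSF-1. The treatment label of the Control arrays names a vehicle whereas their description calls the cells untreated, and the methods of the study give shorter times than the labels, which were followed here. RNA came from 2 independent experiments, and the labels do not say which arrays share one.

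Between 58.7% and 72.0% of the spots were well above background, with the highest shares on the first 24H CSF1 array and the second 48H CSF1 array, and 0 spots were saturated. The transduced gene Csf1r lay between 4.88 and 5.34 log2 units above the 75th percentile on the 6 arrays. Of 9 epithelial markers, Cldn4, Cldn7, Esrp1 and Krt8 were well above background on all 6 arrays, Esrp2 on 5, Krt18 on 3, Epcam on 1, and Cdh1 and Cldn3 on 0. Of the prostate epithelial markers, Fkbp5 and Psca were well above background on all 6 arrays, Pbsn on 4, and Hoxb13, Foxa1 and Tmprss2 on 0. All 13 mesenchymal markers, Vim and Fn1 among them, were well above background on all 6 arrays. Of the epithelial markers, Cdh1 and Epcam, which define the cell type that the study gives this line, were thus not well above background on most arrays, while others were.

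Levels are given below as the log2 of the background-subtracted signal after subtraction of the 75th percentile of its array, and differences in log2 units. A level of 0 is the 75th percentile, and levels of different probes cannot be set against each other. A gene was called where limma gave a Benjamini-Hochberg adjusted p under 0.05 over all genes tested and the change was at least 2-fold. With 2 arrays against 2, an exact permutation test of a single gene cannot go below p = 0.333, so that p-values rest on the fit across genes. In RNA from a whole culture, fewer cells of a type and less RNA per cell cannot be told apart.

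Of the 51 keratins, 20 were well above background on all 6 arrays, 26 on both Control arrays and 8 on 0 arrays. The 5 luminal keratins had 4 tested members, the 3 basal keratins 3, the 4 stress keratins 2, the 14 stratification and differentiation keratins 8, the 8 inner root sheath and companion layer keratins 4, the 15 hair shaft keratins 7, and the 2 remaining keratins 2. Krt4, Krt15, Krt18 and Krt83 entered the test through the stimulated arrays alone, because fewer than 2 Control arrays were well above background. Between 25 and 37 keratins were well above background on each array, with the most on the first 24H CSF1 array, followed by 35 on the second 48H CSF1 array.

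**Figure D1:**
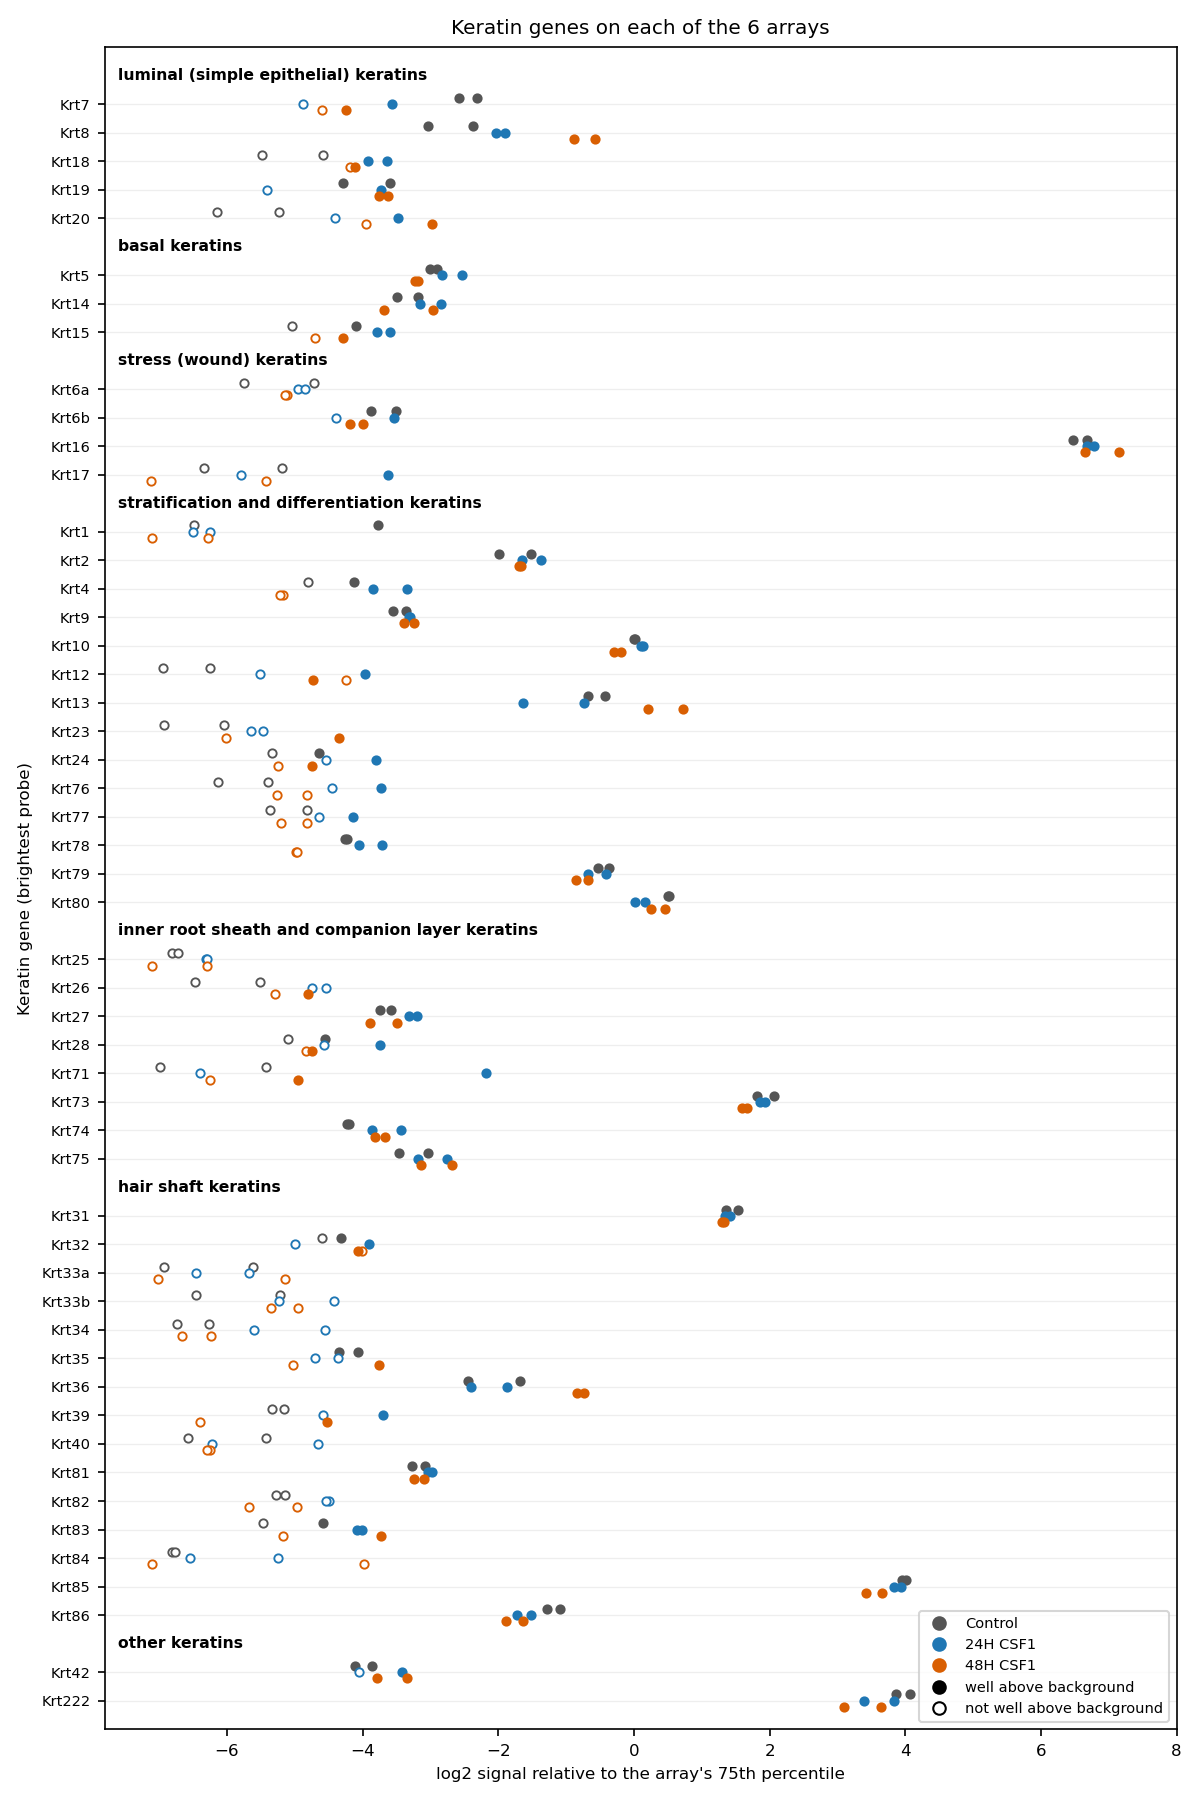
The level of each of the 51 keratins (brightest probe) on each of the 6 arrays, on the horizontal axis in log2 units relative to the 75th percentile of the array, with genes grouped by class on the vertical axis. Filled points were well above background and open points were not; Krt8 lies further right and Krt7 further left in 48H CSF1 than in Control, while the points of Krt16 lie between 6.47 and 7.15 in all groups.

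The tested keratins were first counted against all genes tested. At 24 h, 0 of the 30 tested keratins were called by limma, against 6.17% of all genes tested (4.55% higher and 1.62% lower). At 48 h, 2 were called, against 5.4% of all genes. One of them, Krt8, rose, where 3.95% of all genes were called higher, and the other, Krt7, fell, where 1.46% were called lower. Between 48 h and 24 h, 0 keratins were called by limma, and 0% of all genes. At an unadjusted p under 0.05 and 2-fold, 2 keratins passed at 24 h, against 7.68% of all genes. Krt18 was higher (5.86% of all genes), with a filter that favored its direction, since it entered the test through its 24 h arrays alone. Krt7 was lower (1.83%). At 48 h 4 passed by this rule, against 6.48%, with Krt8, Krt13 and Krt36 higher (4.66%) and Krt7 lower (1.83%). Between the times 5 passed, against 2.27%, with Krt8, Krt13 and Krt36 higher at 48 h (0.868%) and Krt4 and Krt78 lower (1.4%). At an unadjusted p under 0.05 with no limit on the change, 8 keratins passed at 24 h (5 higher, 3 lower), against 31.3% of all genes (17.1% higher, 14.2% lower). By the same rule 10 passed at 48 h (5 higher, 5 lower), against 30.9% (12.1% and 18.8%), and 9 between the times (3 higher, 6 lower), against 13.6% (4.38% and 9.24%). The methods' t-test, which the study states for its comparisons in general, was also run. After adjustment it gave 0 calls in each of the 3 comparisons, among keratins and among all 24648 genes tested. At an unadjusted p under 0.05 and 2-fold it gave 0, 2 and 4 keratins, against 1352, 1162 and 251 of the 24648 genes.

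The median difference of the 30 tested keratins was 0.15 at 24 h and -0.01 at 48 h, beside 0.04 and -0.04 over all genes tested. For the 20 keratins well above background on all 6 arrays, the medians were 0.13 and -0.01, beside 0.01 and -0.06 over all 21322 such genes. The 95% confidence interval of the difference lay within a 2-fold change in either direction for 18 of the 30 keratins at 24 h and for 17 at 48 h. For the other keratins, the called genes included, the interval reached past a 2-fold change.

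**Figure D2:**
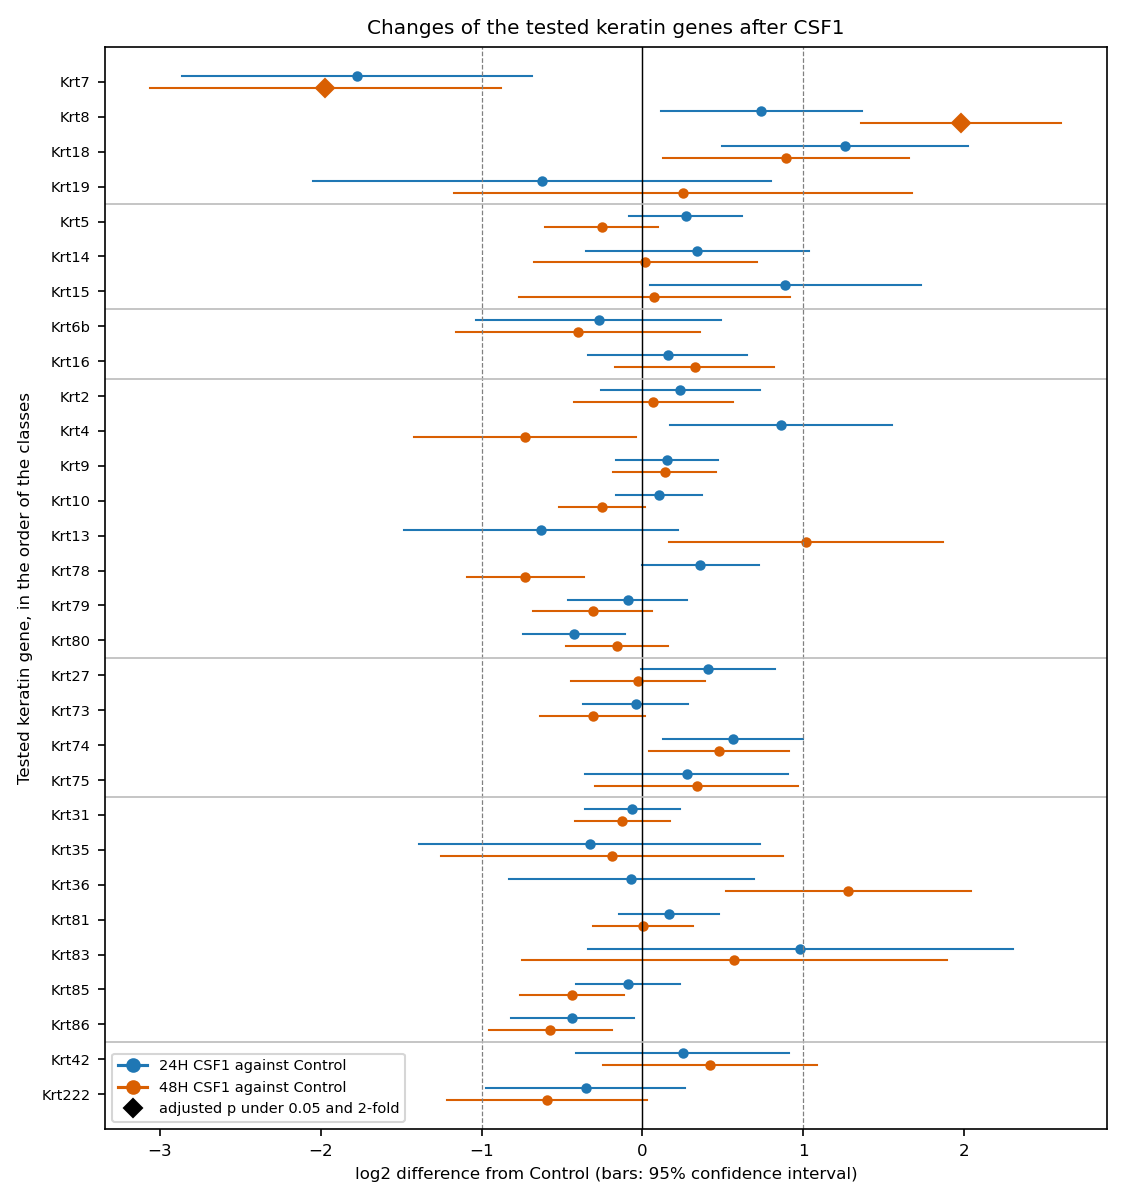
The log2 difference from Control of the 30 tested keratins after 24 h (blue) and 48 h (orange) of CSF-1, with bars for the 95% confidence interval from the limma fit, dashed lines at a 2-fold change and grey lines between the classes. Diamonds mark the called genes, Krt8 at 1.98 and Krt7 at -1.97 after 48 h; the 8 intervals of the luminal keratins all reach past a 2-fold change, whereas over all classes 18 of 30 intervals at 24 h and 17 at 48 h lie inside it.

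The luminal keratins gave both calls, in opposite directions. The signal of Krt8, the type II keratin of simple epithelia, was -3.04 and -2.37 on the Control arrays, -1.91 and -2.03 on the 24H CSF1 arrays, and -0.88 and -0.58 on the 48H CSF1 arrays. The groups did not overlap, with both 24 h arrays above Control and both 48 h arrays above 24 h. The difference from Control was 0.74 (SE 0.25, adjusted p = 0.112) at 24 h and 1.98 (SE 0.25, adjusted p = 0.0106), a 3.95-fold rise, at 48 h. The difference between the times was 1.24 (SE 0.25, adjusted p = 0.161). Without the second 48H CSF1 array the difference at 48 h was 1.83 with an adjusted p of 0.0581, which ended the call, and over all 22 alternatives the adjusted p ranged from 0.000486 to 0.193.

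A further Krt8 probe, in the coding part of the transcript and shown for that reason, reads from base 1037 of the reference transcript and lies at chr15:101828827-101828886 on the minus strand (mm9). It is printed 5′ to 3′ in lower case, with nothing marked.

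Krt8: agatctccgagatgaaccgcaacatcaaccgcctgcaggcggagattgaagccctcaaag

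This probe read -4.29 and -4.16 on the Control arrays, -3.39 and -3.55 at 24 h, and -3.34 and -3.30 at 48 h. Both stimulated groups were above Control on every array, and the 48 h arrays were the highest. When each probe was tested on its own, the difference was 0.76 (SE 0.12, adjusted p = 0.0216) at 24 h and 0.91 (SE 0.12, adjusted p = 0.0151) at 48 h, both under 2-fold. Both Krt8 probes thus moved in the same direction, with the larger difference at 48 h on the brighter probe. The brighter probe, on which the call rests, is annotated to a transcript other than the reference one, at chr15:101827138-101827197 (mm9). Whether it measures the same transcript as the further probe was not tested.

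Krt7, a type II keratin of simple and glandular epithelia, moved the other way. Its signal was -2.58 and -2.32 on the Control arrays, -3.57 and -4.88 at 24 h, and -4.60 and -4.24 at 48 h. Every stimulated array was below both Control arrays, and 1 of 2 arrays at each time was well above background. The measured difference was -1.77 (SE 0.43, adjusted p = 0.0535) at 24 h and -1.97 (SE 0.43, adjusted p = 0.0421), a 3.92-fold fall, at 48 h. The times differed by -0.20 (95% confidence interval -1.28 to 0.89).

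The Krt7 call at 48 h was lost without any 1 of the Control or 48H CSF1 arrays, with adjusted p between 0.12 and 0.159, and the difference fell to between -0.80 and -0.81 under normexp background correction. Over all 21 alternatives it was called in 12, with adjusted p from 0.0023 to 0.159. The probe that measured it reads from base 1054 of the transcript, at chr15:101253718-101253777 on the plus strand (mm9), and is shown because a call rests on it alone.

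Krt7: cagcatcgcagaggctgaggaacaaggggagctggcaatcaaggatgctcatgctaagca

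Krt18, the type I partner of Krt8, was well above background on 0 Control arrays, on 2 at 24 h and on 1 at 48 h. Its signal was -5.49 and -4.59 in Control, -3.92 and -3.64 at 24 h, and -4.18 and -4.11 at 48 h. All stimulated arrays were above both Control arrays, and the 24 h arrays were the highest. Because the Control arrays give only an upper bound, the measured rise of Krt18 has a lower limit. This limit was 1.86-fold at 24 h (adjusted p = 0.0522) and 1.44-fold at 48 h (adjusted p = 0.118). Both limits leave out the spread between arrays. The confidence interval of the difference reached down to 0.50 at 24 h and 0.13 at 48 h, which lies below them. Krt18 was not called at either time, unlike Krt8 at 48 h, and the difference between the 2 genes was not tested.

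Krt19, a type I simple epithelial keratin without a fixed partner, read -4.29 and -3.59 in Control, -3.73 and -5.41 at 24 h, and -3.76 and -3.62 at 48 h. The groups overlapped, and the second 24H CSF1 array was low and not well above background. Its differences, -0.63 at 24 h (95% confidence interval -2.05 to 0.80) and 0.25 at 48 h (-1.17 to 1.67), leave changes of over 2-fold in either direction possible. Krt20, known from intestinal and urothelial epithelium, was not tested, because it was well above background on the first 24H CSF1 array and the second 48H CSF1 array alone. Krt12 and Krt71 had the same pattern of flags, on the 2 arrays with the highest share of spots well above background, and the part of that share in the pattern was not tested.

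The promoters of the 3 luminal keratins that passed an unadjusted p under 0.05 and 2-fold at either time are shown next, as the 250 bases before the start in RefSeq on GRCm38.p6, 5′ to 3′ on the strand of the gene. A RefSeq promoter window was found for 34 of the 51 keratins. The windows are chr15:101412153-101412402 (plus strand) for Krt7, chr15:102004343-102004592 (minus strand) for Krt8 and chr15:102027966-102028215 (plus strand) for Krt18. Capitals mark CACCTG, the reverse complement of CAGGTG, an E-box of the kind that repressors of epithelial genes such as Snai and Zeb proteins are known to bind.

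Krt7: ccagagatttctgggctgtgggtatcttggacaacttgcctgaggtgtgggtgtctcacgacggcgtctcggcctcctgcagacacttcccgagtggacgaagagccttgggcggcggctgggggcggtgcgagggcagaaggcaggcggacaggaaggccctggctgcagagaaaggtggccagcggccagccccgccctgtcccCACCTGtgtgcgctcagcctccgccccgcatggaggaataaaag
Krt8: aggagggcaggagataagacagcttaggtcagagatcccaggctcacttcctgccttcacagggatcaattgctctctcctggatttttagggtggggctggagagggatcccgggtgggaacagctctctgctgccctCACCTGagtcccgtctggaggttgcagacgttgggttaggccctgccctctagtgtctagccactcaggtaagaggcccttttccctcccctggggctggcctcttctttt
Krt18: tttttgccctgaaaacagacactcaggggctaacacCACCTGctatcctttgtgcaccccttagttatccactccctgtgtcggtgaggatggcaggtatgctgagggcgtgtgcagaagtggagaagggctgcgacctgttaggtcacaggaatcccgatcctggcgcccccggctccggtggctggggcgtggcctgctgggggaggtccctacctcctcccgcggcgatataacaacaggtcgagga

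Each of the 3 windows held 1 match to CAGGTG on either strand, which begins 44 bases before the start in Krt7, 111 in Krt8 and 214 in Krt18, and 17.2% of all 32851 windows of this length held at least 1. The window of Krt7, the keratin that fell, held 4 matches to GGGCGG, a GC box found in 32.7% of windows, whereas those of Krt8 and Krt18 held 0. GGAAGT, found in 19.7%, had 1 match in Krt7 and 1 in Krt8. TATAAA (12.4% of windows), TGANTCA (6.7%) and TTCNNNGAA (7.0%) had 0 matches in the 3 windows. All 6 motifs were searched on both strands, and a match is a description of the letters only.

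The basal keratins were not called at either time. Krt5, the type II keratin of basal cells, was well above background on all 6 arrays and read -2.90 and -3.0 in Control, -2.83 and -2.53 at 24 h, and -3.23 and -3.18 at 48 h. The 24 h arrays were above Control and the 48 h arrays below it, by 0.27 (SE 0.14, adjusted p = 0.262) and -0.25 (SE 0.14, adjusted p = 0.288), and at 24 h the difference was -0.01 when arrays were centred on their median. A second, dimmer Krt5 probe was well above background on 4 arrays. Tested on its own, it differed by 0.98 at 24 h (adjusted p = 0.099) and -0.0045 at 48 h (adjusted p = 0.995).

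Krt14, the type I partner of Krt5, read -3.18 and -3.50 in Control, -2.85 and -3.15 at 24 h, and -2.96 and -3.69 at 48 h. The 24 h arrays lay above Control, by 0.34 (95% confidence interval -0.35 to 1.03), and the 48 h arrays lay on either side of it, with a difference of 0.02 (-0.68 to 0.71). Krt15, a type I keratin of basal cells, was well above background on 1 Control array, 2 arrays at 24 h and 1 at 48 h. It read -4.10 and -5.05, then -3.59 and -3.78, then -4.71 and -4.29, with differences of 0.89 (adjusted p = 0.143) and 0.07 (adjusted p = 0.912). All 3 basal keratins were thus nominally higher at 24 h than at 48 h, by 0.32 to 0.81, with adjusted p between 0.228 and 0.648. Krt15, with the largest of these differences, entered the test through the 24 h arrays alone, where it was highest, so that the filter favored its direction. The median difference of 48 h against 24 h over all genes tested was -0.08.

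Among the stress keratins, Krt16, a type I keratin of wounded epidermis, was far above background on every array. It read 6.67 and 6.47 in Control, 6.68 and 6.78 at 24 h, and 6.64 and 7.15 at 48 h. The groups lay close together, and the second 48H CSF1 array was the highest. The differences were 0.16 (95% confidence interval -0.34 to 0.65) and 0.33 (-0.17 to 0.82), and both intervals lay within a 2-fold change. Whether its only probe measures Krt16 was not tested.

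Krt6b, a type II keratin that pairs with Krt16, read -3.51 and -3.87 in Control, -3.54 and -4.39 at 24 h, and -4.0 and -4.19 at 48 h. Its differences were -0.27 (95% confidence interval -1.03 to 0.49) and -0.40 (-1.16 to 0.36). Tested on its own, a second Krt6b probe differed by -0.30 at 24 h (adjusted p = 0.509) and 0.02 at 48 h (adjusted p = 0.966). Krt6a was well above background on 0 arrays and Krt17, the remaining stress keratin, on 1 array, at 24 h.

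Among the 8 tested stratification and differentiation keratins, 4 (Krt13, Krt4, Krt78 and Krt10) had both 24 h arrays on one side of both Control arrays and both 48 h arrays on the other. Over all classes this held for 5 of the 30 tested keratins and for 603 of the 24648 genes tested (2.45%), and the differences between the times in these 5 had adjusted p between 0.116 and 0.261. Krt13, the type I keratin of wet stratified epithelia such as the oesophagus, read -0.68 and -0.43 in Control, -0.74 and -1.63 at 24 h, and 0.72 and 0.21 at 48 h. Both 48 h arrays were above Control and both 24 h arrays below it. The differences were -0.63 (SE 0.34, adjusted p = 0.276) and 1.01 (SE 0.34, adjusted p = 0.113), and the 48 h arrays exceeded the 24 h arrays by 1.65 (SE 0.34, adjusted p = 0.166), or 3.13-fold.

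The other Krt13 probe moved differently, and both are shown because they disagree. The brighter one reads from base 885 of the transcript (chr11:99980412-99980471, minus strand, mm9) and the dimmer one from base 279 (chr11:99982471-99982530).

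Krt13, base 885: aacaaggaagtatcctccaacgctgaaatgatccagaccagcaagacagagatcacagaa
Krt13, base 279: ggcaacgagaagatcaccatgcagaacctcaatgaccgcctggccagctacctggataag

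The dimmer probe read -3.14 and -3.61 in Control, -2.47 and -2.68 at 24 h, and -2.91 and -2.77 at 48 h. All its stimulated arrays were above Control, by 0.80 (adjusted p = 0.0569) at 24 h and 0.53 (adjusted p = 0.146) at 48 h. The direction at 24 h thus depended on the probe, and the direction at 48 h did not.

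Krt4, the type II partner of Krt13, was well above background on 1 Control array, on 2 arrays at 24 h and on 0 at 48 h. It entered the test through the 24 h arrays alone. It read -4.80 and -4.13 in Control, -3.85 and -3.35 at 24 h, and -5.18 and -5.22 at 48 h. The 24 h arrays were above Control, by 0.86 (adjusted p = 0.0992). Their measured excess over the 48 h arrays was at least 2.2-fold (adjusted p = 0.141), a limit that leaves out the spread between arrays.

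Krt78, a type II keratin of stratified epithelia, read -4.27 and -4.24 in Control, -3.72 and -4.06 at 24 h, and -4.99 and -4.97 at 48 h, where 0 arrays were well above background. It was at least 1.29-fold lower at 48 h than in Control (adjusted p = 0.0329, measured difference -0.73) and was not called, being under 2-fold. A second Krt78 probe was well above background on 0 arrays and gives no direction.

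Krt10, the type I keratin of suprabasal epidermis, differed from Control by 0.10 at 24 h and -0.25 at 48 h (SE 0.11, adjusted p = 0.182). Its 2 probes went in opposite directions at 48 h, with a difference of 0.59 (adjusted p = 0.133) on the dimmer one. The brighter Krt10 probe is annotated to a stretch of 21 bases of the genome, although it is 60 bases long, at chr11:99246538-99246558 (mm9). Krt80, a widely expressed type II keratin, differed by -0.42 at 24 h (SE 0.13, adjusted p = 0.0859) and -0.16 at 48 h (adjusted p = 0.455). Krt2, a type II keratin of the upper epidermis, differed by 0.24 (adjusted p = 0.478) at 24 h and by 0.07 (adjusted p = 0.856) at 48 h. For Krt9, the type I keratin of palm and sole skin, the differences were 0.15 (adjusted p = 0.481) and 0.14 (adjusted p = 0.524). Krt79, a type II keratin, gave -0.09 (adjusted p = 0.731) and -0.31 (adjusted p = 0.23).

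Of the hair keratins, Krt36, a type I keratin of the hair shaft and nail, stood out at 48 h. It read -2.45 and -1.68 in Control, -1.87 and -2.40 at 24 h, and -0.84 and -0.73 at 48 h. Both 48 h arrays were above all other arrays, while the 24 h arrays overlapped with Control. The difference was 1.28 (SE 0.30, adjusted p = 0.0503), or 2.43-fold, at 48 h and -0.07 (95% confidence interval -0.83 to 0.69) at 24 h. The adjusted p at 48 h lay on either side of the threshold over 22 alternatives, from 0.0115 to 0.306, and Krt36 was called in 3. Its second probe had a difference of 0.60 at 48 h (adjusted p = 0.306).

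Among the other tested hair shaft keratins, Krt86 differed by -0.44 and -0.57 (adjusted p = 0.122 and 0.0655), and Krt85 by -0.09 (adjusted p = 0.692) and -0.44 (adjusted p = 0.0835). A second Krt85 probe, well above background on all 6 arrays, differed by 0.40 (adjusted p = 0.508) and 0.53 (adjusted p = 0.384) when tested on its own. The dimmest Krt85 probe differed by 0.46 (adjusted p = 0.091) and -0.38 (adjusted p = 0.14). The type I hair keratin Krt31 gave -0.06 (adjusted p = 0.771) and -0.13 (adjusted p = 0.53). Krt35, also of type I, was well above background on 2 Control arrays, 0 at 24 h and 1 at 48 h. Its measured fall at 24 h was at least 1.08-fold (adjusted p = 0.659), but the confidence interval, -1.39 to 0.73, reached to either side of no change. At 48 h Krt35 differed by -0.19 (adjusted p = 0.809). Krt81, of type II, differed by 0.17 (adjusted p = 0.428) and 0.00 (adjusted p = 0.988). Krt83, of type II, was well above background on 1, 2 and 1 arrays of the 3 groups and differed by 0.98 (adjusted p = 0.277) and 0.57 (adjusted p = 0.524).

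Of the inner root sheath keratins, Krt74 had the largest difference at 24 h, 0.57 (SE 0.17, adjusted p = 0.0915), with 0.47 at 48 h (adjusted p = 0.137). Krt27 differed by 0.41 (adjusted p = 0.167) and -0.03 (adjusted p = 0.936), and Krt73 by -0.04 (adjusted p = 0.871) and -0.31 (adjusted p = 0.182). The companion layer keratin Krt75 differed by 0.27 (adjusted p = 0.521) and 0.34 (adjusted p = 0.426). Outside the classes, Krt42 gave 0.25 (adjusted p = 0.582) and 0.42 (adjusted p = 0.346), and Krt222 gave -0.35 (adjusted p = 0.397) and -0.59 (adjusted p = 0.177). None of the inner root sheath, companion layer or remaining keratins was called.

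Of the 21 keratins that were not tested, 8 belong to the hair shaft (Krt32, Krt33a, Krt33b, Krt34, Krt39, Krt40, Krt82 and Krt84), 4 to the inner root sheath (Krt25, Krt26, Krt28 and Krt71), 6 to stratified epithelia (Krt1, Krt12, Krt23, Krt24, Krt76 and Krt77), 2 to the stress keratins (Krt6a and Krt17) and 1 to the luminal keratins (Krt20).

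Several names rest on probes that disagree. Of the 13 keratins with several probes, all probes of a gene had 1 direction in 9 at 24 h and in 9 at 48 h. These counts include probes well above background on 0 arrays, which give no direction: 2 of Krt40 and 1 each of Krt2, Krt222 and Krt78. For Krt222, 1 probe read between 3.10 and 4.07 on the 6 arrays, whereas the other was well above background on 0 arrays. The bright Krt222 probe holds a run of 22 bases that alternates between 2 bases, which 71 of the 55681 probes (0.128%) match or exceed in length. For Krt85, the brightest probe read between 3.42 and 4.01 and has no mapped position in the files, and another, well above background on 5 of 6 arrays, read between -4.87 and -3.84.

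The dimmest of the 3 Krt85 probes lies at chr15:101261695-101261754 (mm9), near the Krt83 probe at chr15:101263556-101263615 rather than the other mapped Krt85 probe at chr15:101346117-101346176. The accession that the array pairs with Krt83 carries the symbol Krt87 in RefSeq. Whether these probes also bind other hair keratins was not tested, and signal under these names is uncertain.

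**Figure D3:**
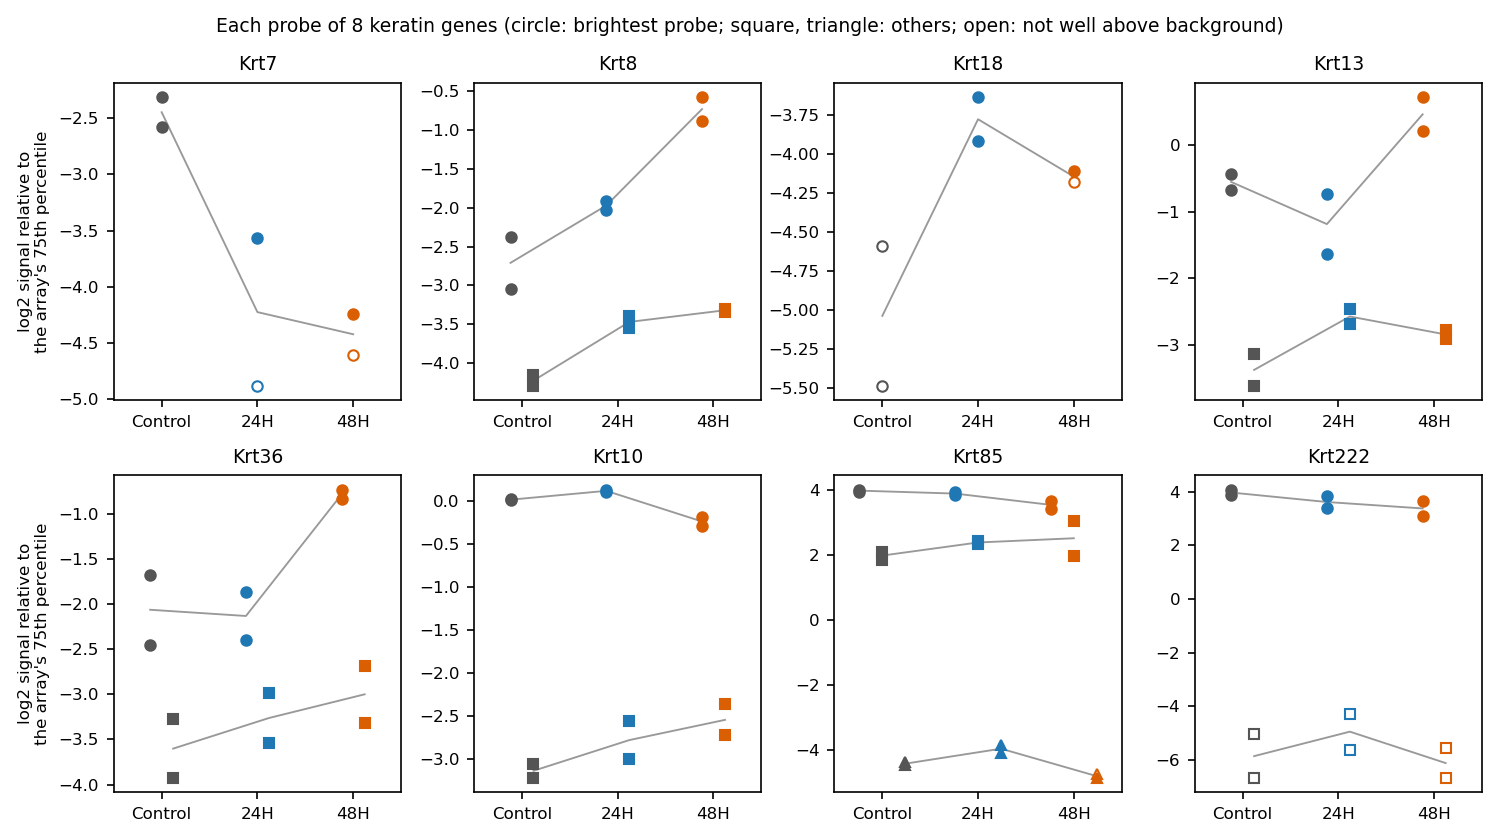
The level of every probe of 8 keratins on the 6 arrays, on the vertical axis in log2 units relative to the 75th percentile of the array, by group on the horizontal axis; each panel has its own vertical scale. Lines join the group means of a probe, and open symbols were not well above background. Both Krt8 probes rise, the Krt13 probes differ at 24 h, and 1 Krt222 probe was well above background on all 6 arrays and the other on 0.

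The genes that anchor or surround keratin filaments were taken from lists of their roles, beside the background shares called given above. Of 16 desmosome genes, 8 were tested, with 1 called higher and 2 lower at 24 h and 2 lower at 48 h. Pkp1, a plakophilin that links keratin to desmosomes of stratified epithelia, read -0.41 and -0.21 in Control, -2.18 and -2.19 at 24 h, and -2.53 and -2.61 at 48 h. It fell at both times, with differences of -1.88 (SE 0.12, adjusted p = 0.00239) and -2.26 (SE 0.12, adjusted p = 0.00138), with no overlap between Control and either time.

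Pkp2, the plakophilin of simple epithelia and heart, was well above background on both Control arrays, on 0 at 24 h and on 1 at 48 h. It read -3.29 and -3.44 in Control, -6.54 and -6.29 at 24 h, and -4.64 and -4.57 at 48 h. It was at least 2.01-fold lower at 24 h (adjusted p = 0.00134) and lower at 48 h, with a measured difference of -1.24 (adjusted p = 0.0074). Dsg2, the desmosomal cadherin of all epithelia, rose at 24 h by 1.26 (SE 0.15, adjusted p = 0.00957) and had a difference of 0.70 at 48 h. The median difference of the 8 tested desmosome genes was 0.04 at 24 h and 0.07 at 48 h.

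Of 12 hemidesmosome and linker genes, 11 were tested, with 2 called higher at each time and 1 lower at 24 h. Col17a1, a transmembrane collagen of the hemidesmosome, was well above background on 0 Control arrays, with -6.75 and -6.73, and on all stimulated arrays, with -2.16 and -2.49 at 24 h and -3.63 and -3.65 at 48 h. It was at least 7.19-fold higher at 24 h (adjusted p = 0.000946) and at least 2.89-fold higher at 48 h (adjusted p = 0.00104). Itga6, the integrin chain of the hemidesmosome, read 4.18 and 4.24 in Control, 5.64 and 5.50 at 24 h, and 5.59 and 5.33 at 48 h. It rose by 1.35 (adjusted p = 0.00632) and 1.25 (adjusted p = 0.00743). Eppk1, epiplakin, a plakin that binds keratin, fell at 24 h, with a difference of -2.71 (SE 0.44, adjusted p = 0.0195), and had a difference of -1.38 at 48 h (adjusted p = 0.101). The median difference of the list was -0.11 at 24 h and 0.12 at 48 h.

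Of 18 epithelial and keratinocyte transcription factors, 10 were tested, and Gata3, a regulator of luminal epithelium, was the 1 called at each time. It read 0.39 and 0.00 in Control, -0.85 and -1.30 at 24 h, and -1.08 and -1.28 at 48 h. It fell at both times, with differences of -1.27 (adjusted p = 0.0228) and -1.37 (adjusted p = 0.0196). Of 14 cornified envelope genes, 9 were tested. Scel, sciellin, a precursor of the envelope, was well above background on the Control arrays alone and was at least 1.91-fold lower at 24 h (adjusted p = 0.0184) and at least 2.72-fold lower at 48 h (adjusted p = 0.00983). The transglutaminases Tgm1 and Tgm5, which cross-link the envelope, rose at 24 h. Tgm1 rose by 1.62 (adjusted p = 0.0222) and Tgm5 by a measured change of at least 2.33-fold (adjusted p = 0.0102). Their differences at 48 h were 0.17 and -0.11.

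Of 14 other intermediate filament genes, 11 were tested. Vim, vimentin, the filament of mesenchymal cells, read between 7.96 and 8.36 on the 6 arrays, with differences of -0.16 (95% confidence interval -0.47 to 0.14) and -0.27 (-0.58 to 0.03). Lmnb1, lamin B1 of the nuclear lamina, fell at 48 h, with a difference of -1.13 (adjusted p = 0.04), and Nefh, the heavy neurofilament, rose at 24 h by 1.28 (adjusted p = 0.0216), with 1 Control array well above background.

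Markers of other cell types were followed in the same comparisons. Of the 13 mesenchymal markers, 1 was called higher and 3 lower at 24 h, and 3 lower at 48 h. Pdgfrb, a receptor of mesenchymal cells, differed by -1.91 (adjusted p = 0.00839) and -1.12 (adjusted p = 0.0312), Col1a2, a chain of type I collagen, by -1.44 (adjusted p = 0.0133) and -1.23 (adjusted p = 0.0208), and Snai2, a repressor of epithelial genes, by -1.33 (adjusted p = 0.00565) and -0.91 (adjusted p = 0.0145), the last under 2-fold. The 1 called higher is not among these named genes. The median difference of the 13 markers was -0.16 at 24 h and -0.17 at 48 h. The summed signal of the list, in multiples of the 75th percentile, was 717 and 751 in Control, 502 and 530 at 24 h, and 486 and 488 at 48 h, so that the groups did not overlap. This sum is of linear signal and is weighted to the brightest genes.

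The summed signal of the epithelial list was 1.24 and 1.16 in Control, 1.47 and 1.38 at 24 h, and 1.68 and 1.76 at 48 h, with Krt8 the 1 member called (at 48 h). Without Krt8 and Krt18, the sum of the other 7 genes was 1.1 and 0.93 in Control, 1.13 and 1.05 at 24 h, and 1.08 and 1.03 at 48 h, so that the groups overlapped. Of 12 markers of macrophages and other blood cells, 8 were tested and 0 were called by limma at either time. At an unadjusted p under 0.05 with no limit on the change, 3 of the 8 passed at each time. Over all genes tested, 31.3% passed by this rule at 24 h and 30.9% at 48 h. Lyz2 and Spi1 (Sfpi1 in the files) were well above background on 0 arrays. The summed signal of that list was 55.5 and 48.4 in Control, 48.0 and 39.3 at 24 h, and 44.1 and 33.5 at 48 h. The part of these shifts in the values of the keratins was not tested.

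**Figure D4:**
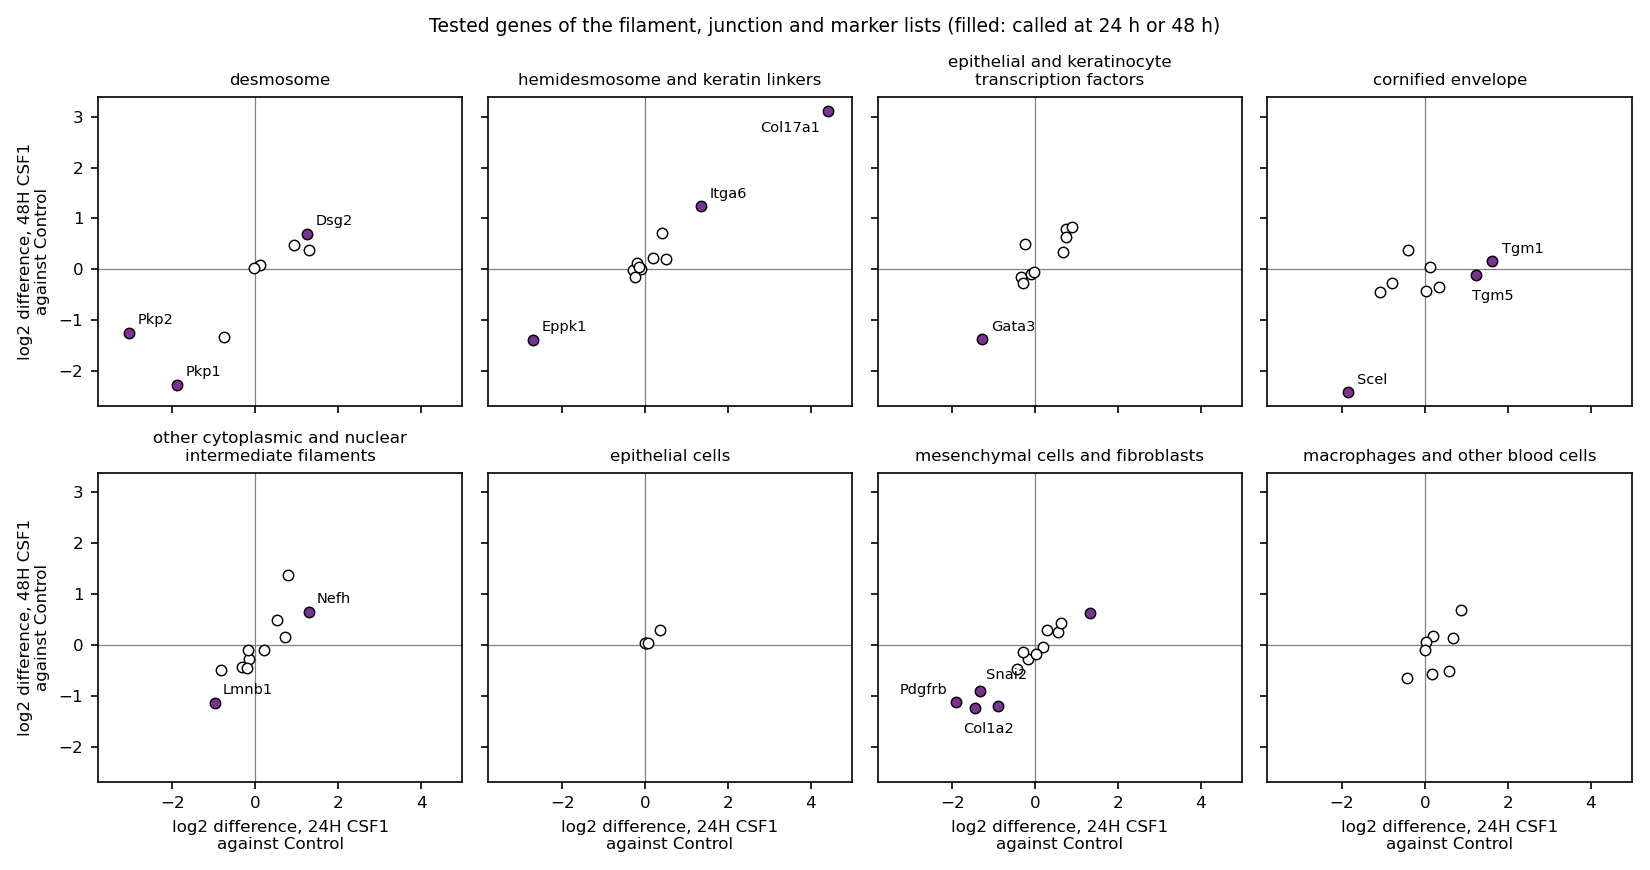
Each tested gene of 8 lists by its log2 difference from Control at 24 h (horizontal axis) and 48 h (vertical axis), keratins left out; filled points were called at 24 h or 48 h, and up to 3 per list are named. Col17a1 lies at 4.41 and 3.10, measured against Control arrays that were not well above background, and Pkp1, Pkp2 and Scel lie below 0 at both times.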

How the data were processed

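N18-Fms cells were measured on 6 single-color Agilent mouse arrays, 2 per group. For each array, a Feature Extraction (version 11.0.1) file was deposited by the authors, of which the background-subtracted signal was used, a linear intensity not normalized between arrays. The authors also deposited log2 values for 44569 probes, whose differences between arrays were within 0.05 of those computed here in 99.8% of values, and which served as an alternative.

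Spots flagged as outliers were left out (303 probes lost all spots on some array), repeated spots were averaged, and each log2 signal was set relative to the array's 75th percentile. The brightest probe stood for each gene. Genes with signal well above background on the 2 arrays of any group entered the test in R 4.3.3 with limma 3.58.1, 2-sided, in 1 fit of all 6 arrays with 3 residual and 2.39 prior degrees of freedom. Files were read with the data.table package (version 1.17.8), and sequences and figures were made with Biopython and matplotlib. The procedure was tested on simulated data. Where a group was well above background on 0 arrays, the fold change was given a lower limit, computed against the lowest signal of probes well above background. This limit bounds the measured fold change and leaves out the spread between arrays. An adjusted p printed beside it belongs to the measured difference. The number of arrays limits the precision.

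The keratins, classes, gene lists and tests were chosen with earlier results of these data known. Every keratin tested is named with its values, the others by class. From each partner or marker list, at most the 3 called genes with the largest mean change of both times are named, and defining markers with their flags. Part of the prostate epithelial list is not reported here. Alternatives were other normalizations, background corrections, filters, probe rules, tests, a replicate or slide term, and leaving out each array. P-values measure the spread between samples of 2 experiments. The files give probe positions on mm9, and RefSeq promoters are on GRCm38.p6.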

Additional observations from a re-analysis of the deposited data

Results flagged for a closer look

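For 5 keratins, both 24 h arrays lay on one side of both Control arrays and both 48 h arrays on the other side, as for 603 of all 24648 genes tested (2.45%). One of the 5, Krt13, was lower at 24 h and higher at 48 h (0.653% of all genes) and 4 were higher at 24 h and lower at 48 h (1.79%). The differences between 48 h and 24 h, on the log2 scale, were 1.65 for Krt13 (0.17 as limma's adjusted p), -1.59 for Krt4 (0.14), -1.09 for Krt78 (0.12), -0.52 for Krt5 (0.23) and -0.36 for Krt10 (0.26), so that none of the 5 passed the adjusted threshold. The second probe did not show the pattern for Krt13, Krt10 or Krt5, and that of Krt78 was well above background on 0 arrays. For Krt4, 0 of the 48 h arrays, and for Krt78 likewise 0, were well above background. Krt4 entered the test through its 24 h arrays alone, the group where it was highest, so that the filter favored its direction in these counts.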

How the results depend on the processing

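Over 22 alternatives, 0 differences of a called keratin changed direction. At 24 h, where 0 keratins were called, 1 was called, Krt7 as lower, under quantile normalization, median centring, an intensity trend in the prior and a slide term, and 2 at the unadjusted p (Krt18 higher, Krt7 lower). The first 24H CSF1 array is alone on its slide, so that the slide term equals leaving that array out. At 48 h, where 2 were called, 1 was called, Krt8, under normexp background correction with either scaling and without a filter on dim probes. With an intensity trend 4 were called, and 4 at the unadjusted p. The methods' t-test after adjustment called 0, as it did among all 24648 genes tested. Between the times, where 0 were called, 1 (Krt13) was called under normexp with the 75th percentile and 2 (Krt13, Krt36) under normexp with quantile normalization. With an intensity trend 1 (Krt13) was called, by the methods' t-test unadjusted 4, and at the unadjusted p 5. In the same order, these settings called 112, 130, 110, 251 and 560 of all 24648 genes tested, where the main setting called 0. The causes were not tested.

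Leaving out 1 array gave 0 to 1 calls at 24 h, 0 to 2 at 48 h and 0 to 0 between the times. At 24 h, 1 was called without the second Control array (Krt18 higher) and 1 without the first 24H CSF1 array (Krt7 lower). At 48 h, 1 remained without the first Control array and 1 without the first 48H CSF1 array (Krt8), 2 were called without the second Control array (Krt8 and Krt18 higher), and 0 without the second 48H CSF1 array. With the replicate block, 1 keratin was called at 24 h (Krt18, adjusted p = 0.0399) and 1 at 48 h (Krt8, with Krt7 at an adjusted p of 0.0638), and 0 between the times. For Krt18, which entered the test through its 24 h arrays alone, the filter favored each of these calls as higher. The labels do not say whether a replicate number marks an experiment. The differences between replicates correlated at 0.128, 0.094 and 0.199 between the 3 pairs of groups, all above 0, and 6 of 6 arrays correlated best with an array of their own number, which with 2 arrays per group follows from those signs.

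Median centring moved the median of all genes tested from 0.04 to -0.25 at 24 h and from -0.04 to -0.14 at 48 h. Of all genes, 1121 were called higher and 400 lower at 24 h, against 798 and 958 with median centring and 794 and 496 with quantile normalization. At 48 h 973 were higher and 359 lower, against 882 and 547 with median centring. Signal near background limits 21 of the 51 keratins, which were not tested, and Krt7, Krt18, Krt4 and Krt78 in part of the groups.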
